A study of Mus musculus with 7 samples.

Results

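Nuclease accessible chromatin at 10 genes of the Nrf2 pathway and of oxidative stress defence was described in mouse liver with 3 nucleases, Benzonase, Cyanase and DNase I. The genes were Nfe2l2, Keap1, Nqo1, Gclc, Gclm, Hmox1, Txnrd1, Srxn1, Cat and Sod2, 10 of 22365 genes with protein-coding transcripts. Hotspots, stretches where cleavage tags cluster above background, were taken when they overlapped the body of a gene or 20 kb on either side of it by at least 1 bp. Of 190871 hotspots in the 3 lists, 199 met this rule, and after overlapping hotspots were merged they formed 79 of 94491 regions.

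All samples were livers of male C57BL/6 mice, 8 weeks old and given no treatment named in the labels. Benzonase and Cyanase, which cleave DNA within the strand, digested pulverized frozen liver at doses of 0.25, 1 and 4 U, with 1 library per dose and 3 libraries per enzyme. DNase I digested nuclei purified from fresh liver, and the labels list 1 sample for it, whereas the header of its list names 2 pooled libraries. The authors pooled the tags of each nuclease and deposited 1 list each, with 60910 hotspots for Benzonase, 57675 for Cyanase and 72286 for DNase I. There was therefore no spread between replicates, and no test between nucleases was made. The enzyme and the starting material, frozen tissue or nuclei of fresh tissue, cannot be told apart. The lists hold positions and no tag numbers, so that the depth behind each hotspot is unknown and presence or absence of a hotspot is the readout. All positions are on mm9, and distances from a transcription start site (TSS) run along the strand of the gene, negative upstream.

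Nfe2l2 encodes Nrf2, a transcription factor that Keap1 holds in the cytoplasm and hands to a ubiquitin ligase for degradation. Oxidants and electrophiles modify Keap1, and Nrf2 then accumulates in the nucleus, pairs with small Maf proteins and binds the antioxidant response element in its target genes. In liver, these targets make glutathione, reduce quinones and thioredoxin and degrade heme, which protects hepatocytes that handle reactive metabolites.

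The core of the antioxidant response element, TGACNNNGC, was searched on both strands of the 79 regions. It had 46 matches in 31 of them, and every one of the 10 genes had at least 1, against 64.1% of all genes, whose windows held fewer hotspots at the median. A match is a description of the sequence and not a binding site. The stretches that hold the stricter form TGACTCAGC are shown first, because 7 such matches lay in 5 regions at only 4 of the genes, with the core in capitals and 10 bases on each side. The stretch far upstream of Hmox1 holds 3 copies in 86 bases, is shown on the minus strand and lies at chr8:77607838-77607923, and the nearer copy, also on the minus strand, at chr8:77613639-77613667. The copy upstream of Gclc is on the minus strand at chr9:77598542-77598570, that in intron 1 of Gclm on the plus strand at chr3:121955464-121955492, and that in intron 2 of Sod2 on the minus strand at chr17:13202898-13202926.
Hmox1 far upstream: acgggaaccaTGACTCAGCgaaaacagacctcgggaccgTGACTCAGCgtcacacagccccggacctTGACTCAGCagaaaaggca
Hmox1 upstream: gaacagagggTGACTCAGCaaaatctgtc
Gclc upstream: cgcctcaccgTGACTCAGCactctgcgcg
Gclm intron 1: ttgttcagctTGACTCAGCcctgctgctt
Sod2 intron 2: taagaaaaggTGACTCAGCagttaaaagc

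At every gene but Hmox1, the match nearest to the TSS had another middle triplet. These stretches are shown because they are the matches closest to the accessible promoters, again with the core in capitals. The Gclc stretch lies upstream of the gene on the plus strand at chr9:77599176-77599204. The Nfe2l2 stretch lies upstream of the gene on the minus strand at chr2:75542942-75542970, the Keap1 stretch in the untranslated part of exon 1 on the plus strand at chr9:21043274-21043302, and the Nqo1 stretch upstream on the plus strand at chr8:109929844-109929872. The Gclm stretch lies in the untranslated part of exon 1 on the minus strand at chr3:121948560-121948588, and the Txnrd1 stretch in intron 1 of the longest transcript, just upstream of the middle TSS, on the minus strand at chr10:82321849-82321877. The Srxn1 stretch lies in the untranslated part of exon 1 on the minus strand at chr2:151931278-151931306, the Cat stretch in intron 1 on the plus strand at chr2:103320563-103320591, and the Sod2 stretch in the untranslated part of exon 1 on the minus strand at chr17:13200784-13200812.
Nfe2l2: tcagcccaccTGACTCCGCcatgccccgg
Keap1: cgggtcacggTGACTAAGCacagcgcgcc
Nqo1: ttaagattctTGACATTGCagttatagag
Gclc: cgccagaattTGACTATGCtagaacttat
Gclm: tggaagacaaTGACTAAGCagaaacctca
Txnrd1: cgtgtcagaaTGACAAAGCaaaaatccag
Srxn1: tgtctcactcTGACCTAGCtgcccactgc
Cat: tgacacaccaTGACTTAGCagttctgctc
Sod2: agcgaagcggTGACCCTGCccgcagcgcc

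All 10 genes were accessible at a TSS to every nuclease. A TSS lay inside a hotspot for 10 of 10 genes with Benzonase (57.4% of all genes), with Cyanase (55.7%) and with DNase I (47.4%), and 46.1% of all genes had a TSS in hotspots of all 3. Over all genes, 13.1% had a TSS in the hotspots of only 1 or 2 nucleases and 40.9% in none, and none of the 10 genes was among either. The second annotated TSS of Gclm, at 121958505, and the most upstream TSS of Txnrd1, at 82296696, lay in no hotspot of any list.

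In the windows, Benzonase gave 64 hotspots, Cyanase 61 and DNase I 74. A window held a median of 6 Benzonase, 6.5 Cyanase and 7.5 DNase I hotspots, where the median over all genes was 3 in each list. Scaled to window length, the medians were 0.899, 0.871 and 0.836 hotspots per 10 kb, against 0.384, 0.361 and 0.425 over all genes. These medians were above those over all genes with each nuclease, but single genes varied. The background includes the 40.9% of genes with a TSS in no hotspot, so the higher medians are not read as particular to the 10 genes. Nqo1 lay below the median gene in each list, with 0.182, 0.182 and 0.364 per 10 kb, and Nfe2l2 had 0.723 per 10 kb with Benzonase and with Cyanase and 1.59 with DNase I.

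Regions were classed as common when they held a DNase I hotspot with a Benzonase or Cyanase hotspot, as DNase I unique, or as Benzonase-Cyanase unique. At the 10 genes, 55 of the 79 regions were common (69.6%, 95% Wilson interval 58.8 to 78.7, which covers counting error only), against 45.4% of all regions. DNase I unique regions numbered 16 (20.3%, interval 12.9 to 30.4; all regions 28.3%) and Benzonase-Cyanase unique regions 8 (10.1%, interval 5.22 to 18.7; all regions 26.3%). With an overlap of 50% of both hotspots in place of 1 bp, the common share was 52.1% (all regions 37.2%), the DNase I unique share 26.6% (31.5%) and the Benzonase-Cyanase unique share 21.3% (31.3%). The common share thus lay below its interval and the Benzonase-Cyanase unique share above its own. The intervals take regions as independent, though many share a gene, and do not measure a change of overlap rule. Hotspots of all 3 nucleases were found in 51 of the 79 regions, and in 37766 of the 94491 regions in all. All 11 regions with a TSS of the 10 genes were common, as were the 5 regions with a TSS of another gene, against 79.1% of all regions with a TSS. For the 10 genes this follows in the main from the TSS counts above. Places of unique regions were not counted over the genome, so their split is not read as particular to these genes. At the 10 genes, the unique regions lay in gene bodies (6 DNase I, 5 Benzonase-Cyanase), upstream (8 and 1) or downstream (2 and 2). The map of hotspots by distance from the TSS shows these positions gene by gene, and the bar chart of regions gives the class counts.

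**Figure D1:**
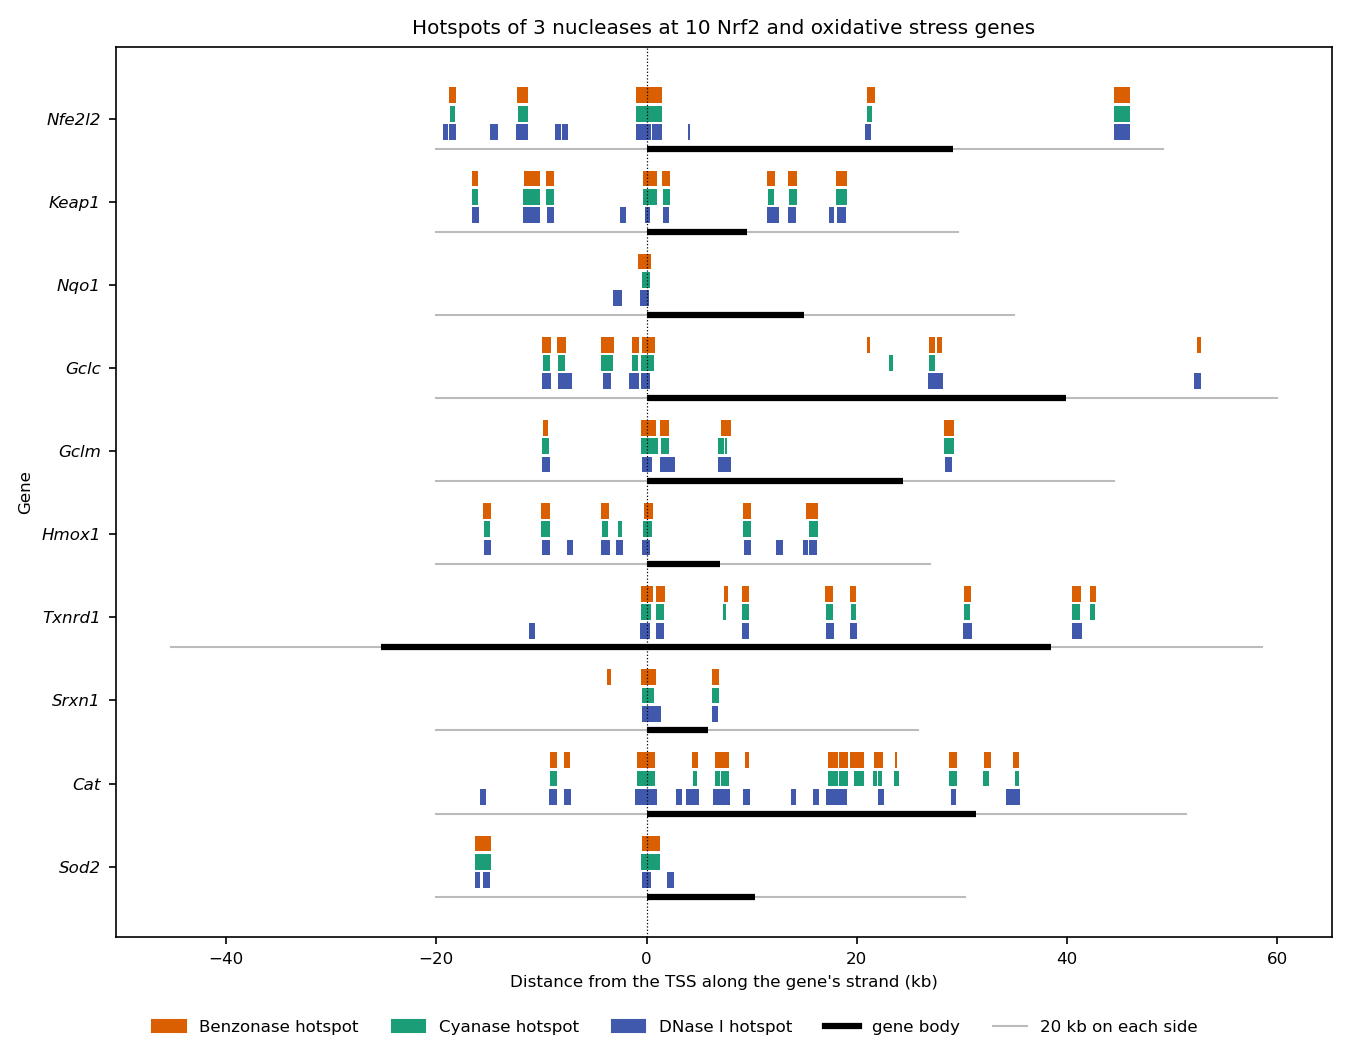
Hotspots of Benzonase, Cyanase and DNase I in the windows of the 10 genes, by distance from the TSS along the strand of the gene in kb, with the gene body in black and 20 kb on each side in grey. All 3 colours meet at the dotted TSS line for every gene, while isolated blue bars, such as those upstream of Nfe2l2, mark DNase I unique regions. For Txnrd1 the line marks the middle of its 3 TSSs.

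**Figure D2:**
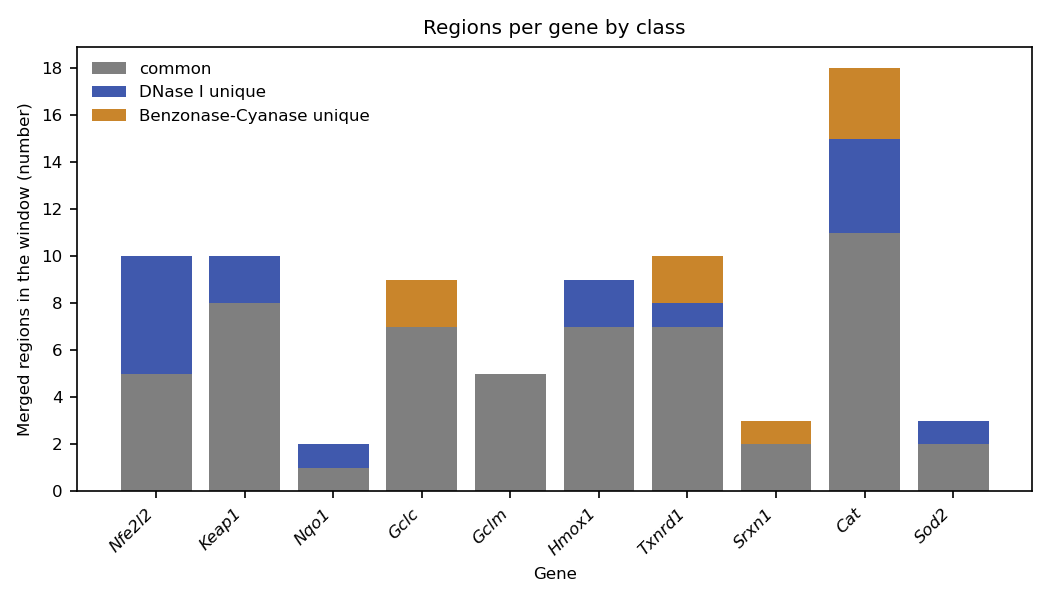
Number of merged regions in the window of each gene, stacked by class. Cat has the most regions, 18, Nqo1 the fewest, 2, and all 5 regions of Gclm are common.

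The regulators were described first. Nfe2l2, the gene of Nrf2, lies on the minus strand at chr2:75513570-75542698 and had 5 Benzonase, 5 Cyanase and 11 DNase I hotspots. Its promoter region, chr2:75541191-75543714, was the widest among the promoters of the 10 genes at 2524 bp and held a CpG island of 1590 bp. The Benzonase hotspot there was 2453 bp wide and the Cyanase hotspot 2408 bp. DNase I divided the same stretch into a hotspot of 1472 bp over the TSS and another of 1014 bp, which began 494 bp downstream of the TSS. Both other nucleases thus covered as 1 hotspot what DNase I listed as a pair.

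Away from the promoter, Nfe2l2 had 5 DNase I unique regions, the highest number among the 10 genes. They were centred at -19108, -14507, -8463 and -7728 bp upstream and at 4055 bp in intron 1, and the last was 251 bp wide, the smallest width found in the DNase I list. Common regions were centred at -18450 and -11831 bp, at 21258 bp in intron 1 and at 45236 bp, where the region held a TSS of the neighbour Hnrnpa3. The GC content of the upstream DNase I unique regions ran from 35.4% to 41.9%. Nfe2l2 had no Benzonase-Cyanase unique region.

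Keap1, the sensor that marks Nrf2 for degradation, lies on the minus strand at chr9:21034174-21043776 and had 8 Benzonase, 8 Cyanase and 10 DNase I hotspots. Its promoter hotspots differed by the largest factor in width among the 10 genes. Benzonase gave 1274 bp, Cyanase 1288 bp and DNase I 427 bp, which made the DNase I hotspot the narrowest at any of the 10 promoters. The DNase I hotspot reached 313 bp downstream of the TSS, whereas the others reached 975 and 961 bp, across a CpG island of 870 bp that ended 801 bp downstream. The match to the core at 488 bp lay in the Benzonase and Cyanase hotspots and outside that of DNase I.

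A separate common region of Keap1, chr9:21041577-21042315, lay over exon 2, with 739 bp for Benzonase, 669 bp for Cyanase and 582 bp for DNase I. Upstream, a wide common region centred at -10918 bp had nearly the same width in all lists, 1585, 1624 and 1628 bp. The next region toward the gene, at -9188 bp, held the TSS of S1pr5, a sphingosine 1-phosphate receptor. Common regions also lay downstream, at 12041, 13880 and 18520 bp. The 2 DNase I unique regions of Keap1 were centred at -2242 and 17553 bp. No region of Keap1 was unique to Benzonase or Cyanase.

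Among the target genes, those for glutathione synthesis came next. Gclc, the catalytic subunit of glutamate-cysteine ligase, lies on the plus strand at chr9:77602342-77642292 and had 9 Benzonase, 7 Cyanase and 7 DNase I hotspots. Its promoter hotspots began at similar places, 478, 505 and 503 bp upstream of the TSS for Benzonase, Cyanase and DNase I. Downstream they ended at 780, 715 and 298 bp, so that the difference in width, 1259 and 1221 bp against 802 bp, lay on the side of the gene. The part covered by Benzonase or Cyanase alone, 484 bp, had a GC content of 60.5%.

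Upstream of Gclc, common regions were centred at -9514, -7763, -3686 and -1159 bp. The region at -3686 bp, chr9:77598047-77599266, holds the TGACTCAGC copy shown above at -3786 bp, within the hotspots of all 3 nucleases. It was 1213 bp wide with Benzonase, 1138 bp with Cyanase and 725 bp with DNase I, and had a GC content of 58.6% and a CpG island. The other match shown for Gclc, at -3152 bp, lay in the Benzonase hotspot alone. In the region at -7763 bp DNase I was the widest instead, with 783 bp for Benzonase, 696 bp for Cyanase and 1396 bp for DNase I. The 2 unique regions of Gclc, in intron 2 and intron 3, were narrow, with a Benzonase hotspot of 311 bp and a Cyanase hotspot of 384 bp. Over exon 6, DNase I listed a hotspot of 1432 bp where Benzonase had hotspots of 579 and 485 bp and Cyanase a single one of 547 bp. No DNase I unique region was found at Gclc.

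Gclm, the modifier subunit of the same ligase, lies on the plus strand at chr3:121948475-121972902 and had 6 Benzonase, 6 Cyanase and 5 DNase I hotspots. All 5 of its regions were common. The promoter hotspots were 1422, 1550 and 925 bp wide for Benzonase, Cyanase and DNase I, and they began at 491, 495 and 451 bp upstream. The match at 99 bp lay in all of them, while another at 877 bp lay beyond the end of the DNase I hotspot at 473 bp. In the adjoining region of intron 1, centred at 1958 bp, DNase I was widest, with 1433 bp against 846 and 773 bp.

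The TGACTCAGC copy of Gclm lay at 7003 bp, in the region chr3:121955305-121956511 of intron 1. DNase I covered this region with a hotspot of 1207 bp. Benzonase and Cyanase broke it into hotspots of 259 and 645 bp and of 559 and 251 bp. The copy was inside the Cyanase and DNase I hotspots, and the Benzonase hotspots began at 7120 bp, past it. The window of Gclm also held a TSS of Dnttip2, in hotspots of all nucleases at 28768 bp, and a TSS of Gm4609, in none.

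Hmox1, the inducible heme oxygenase that breaks heme down to biliverdin, lies on the plus strand at chr8:77617490-77624495 and had 6 Benzonase, 7 Cyanase and 10 DNase I hotspots. The region with the 3 copies of TGACTCAGC, chr8:77607492-77608288, was centred at -9600 bp, and its bounds were close in all lists, with widths of 780 bp for Benzonase, 769 bp for Cyanase and 752 bp for DNase I. The copies, at -9638, -9610 and -9581 bp, lay near the middle of each hotspot. The region with the fourth copy, chr8:77613121-77613976, was centred at -3942 bp and was 801, 648 and 800 bp wide. That copy lay at -3837 bp, beside a match with another triplet at -3889 bp, both in hotspots of every nuclease. These upstream regions of Hmox1 were accessible in mice with no named treatment.

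Among the 7 promoters where DNase I was narrowest, those of Hmox1 and Txnrd1 had the hotspots closest in width, and at Hmox1 they measured 911 bp for Benzonase, 848 bp for Cyanase and 745 bp for DNase I. The promoter region held no match to the core and a short CpG island of 263 bp. Another region, centred at -2585 bp, held a Cyanase hotspot of 451 bp and a DNase I hotspot of 625 bp and none of Benzonase. DNase I unique regions were centred at -7297 and 12683 bp. Downstream, a common region at 9578 bp lay outside the gene, and the region at 15606 bp held a TSS of Mcm5, a subunit of the replicative helicase.

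Txnrd1, the cytosolic thioredoxin reductase, lies on the plus strand at chr10:82296696-82360469 and had 9 Benzonase, 9 Cyanase and 8 DNase I hotspots. Accessibility at its start was at the middle TSS, 82321951, and the most downstream TSS, 82323086, each in a common region of its own. At the middle TSS the hotspots were 1065, 954 and 909 bp wide for Benzonase, Cyanase and DNase I, and at the other 855, 779 and 762 bp. Within the gene, common regions were centred at 9419, 17379, 19677 and 30507 bp. The hotspots at 9419 bp had nearly equal widths, 643, 627 and 643 bp. Txnrd1 had 2 Benzonase-Cyanase unique regions, at 7528 bp in intron 1 and at 42487 bp past the gene, and 1 DNase I unique region, at -10905 bp in intron 1 of the longest transcript. Its matches at -394 and -88 bp lay in the promoter hotspots of all nucleases.

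Nqo1, a quinone reductase, lies on the minus strand at chr8:109912125-109927106 and had the fewest hotspots, 1 Benzonase, 1 Cyanase and 2 DNase I. Its window of 54982 bp was otherwise empty in all lists. The promoter hotspots were 1247, 807 and 874 bp wide, so that Cyanase and not DNase I was narrowest here, and the Benzonase hotspot reached farthest upstream, to 790 bp. Nqo1 was the only one of the 10 genes without a CpG island within 500 bp of a TSS, and its promoter region had a GC content of 52.2%. No match to the core lay in the promoter region, which says only that these letters are not in this window. The match shown above lay at -2752 bp in the DNase I unique region chr8:109929441-109930267, which was 827 bp wide and had a GC content of 40.5%.

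Srxn1, which reduces oxidized peroxiredoxins, lies on the plus strand at chr2:151931260-151937112 and had 3 Benzonase, 2 Cyanase and 2 DNase I hotspots. Here DNase I gave the widest promoter hotspot, 1765 bp against 1352 bp for Benzonase and 1168 bp for Cyanase. The extra length lay downstream, where DNase I reached 1346 bp, Benzonase 868 bp and Cyanase 693 bp. The 478 bp covered by DNase I alone had a GC content of 49.8%, against 63.8% for the part covered by all 3. The match at 32 bp lay in all hotspots, and that at 1153 bp in the DNase I hotspot alone. A common region at 6571 bp began 379 bp past the end of the gene, and a Benzonase hotspot of 356 bp at -3538 bp had no partner.

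The antioxidant enzymes differed widely in their number of hotspots. Cat, the peroxisomal catalase, lies on the minus strand at chr2:103294006-103325317 and had the most, 15 Benzonase, 14 Cyanase and 15 DNase I hotspots in 18 regions. At its promoter DNase I again gave the widest hotspot, 2062 bp against 1681 and 1711 bp, and enclosed both others. The 351 bp covered by DNase I alone had a GC content of 39.3%, and the 1681 bp shared by all 3 had 50.7%. The promoter region of Cat was the poorest in GC of the 10, at 48.6%, with a CpG island of 347 bp.

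Within Cat, common regions followed each other through introns 1 and 2, over exons 7 and 8 and at exon 9, intron 11 and past the 3′ end. Over exons 7 and 8, DNase I listed a hotspot of 2038 bp where Benzonase had hotspots of 829 and 957 bp and Cyanase of 791 and 916 bp. Intron 8 held the widest unique region of the 10 genes, chr2:103304594-103305978, with a Benzonase hotspot of 1385 bp and a Cyanase hotspot of 969 bp. The other Benzonase-Cyanase unique regions of Cat lay at 23777 and 32405 bp, and its 4 DNase I unique regions at -15532, 3105, 13970 and 16107 bp. Along Cat, the DNase I unique regions thus lay upstream and in introns 1, 5 and 6, and the Benzonase-Cyanase unique regions from intron 8 to past the 3′ end. The bases covered in the window were shared least here, with 50.6% between Benzonase and DNase I and 41.8% between Cyanase and DNase I, except for Nqo1 with 42.1% and 39.4%.

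Sod2, the mitochondrial manganese superoxide dismutase, lies on the plus strand at chr17:13200705-13210985 and had 2 Benzonase, 2 Cyanase and 4 DNase I hotspots. The promoter hotspots were 1734, 1749 and 879 bp wide. They began close together, at 453, 483 and 431 bp upstream, and ended at 1280, 1265 and 447 bp downstream. The part covered by Benzonase or Cyanase alone summed to 885 bp, the most at the 10 promoters, of which 833 bp lay downstream of the TSS, and its GC content of 50.7% was below the 65.1% of the part covered by all 3. Of the matches in this region, those at 93 and 305 bp lay in all hotspots and that at 926 bp in the Benzonase and Cyanase hotspots only.

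The TGACTCAGC copy of Sod2, at 2207 bp, lay in a DNase I unique region of intron 2, chr17:13202666-13203284. This region was 619 bp wide and had a GC content of 37.3%. It was the only unique region among the 5 with that sequence. The other region in the window, at -15540 bp, held a TSS of Wtap, with hotspots of 1537 bp for Benzonase and 1547 bp for Cyanase and a pair of 450 and 732 bp for DNase I. At Wtap, as at Nfe2l2, DNase I listed separate hotspots within a stretch that each of the others covered as 1.

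Taken over the 10 promoters, the DNase I hotspot was the narrowest at 7 genes, where 81.7% of the 10275 genes with the same TSS in all 3 lists had this order. It was the widest at 2, Srxn1 and Cat (10.8% of those genes). The narrowest include Nfe2l2, and when hotspots of a list within 150 bp were joined, a setting chosen after seeing the data, its DNase I hotspot became the widest, with 2524 bp. DNase I was then the narrowest at 6 genes (78.7% of all such genes) and the widest at 3 (13.3%). Median widths were 1313 bp for Benzonase, 1254.5 bp for Cyanase and 894 bp for DNase I, against 1317, 1214 and 858 bp over all such genes. The upstream edges had medians of 486, 489 and 477 bp from the TSS, and the downstream edges 824, 746 and 396 bp. At the 10 genes the medians thus differed mainly on the side of the transcribed gene. Over all such genes the medians were 545, 510 and 458 bp upstream and 707, 648 and 341 bp downstream, shortest for DNase I on both sides. In these measures the 10 promoters were near the background, and nothing particular to them was read from the widths.

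**Figure D3:**
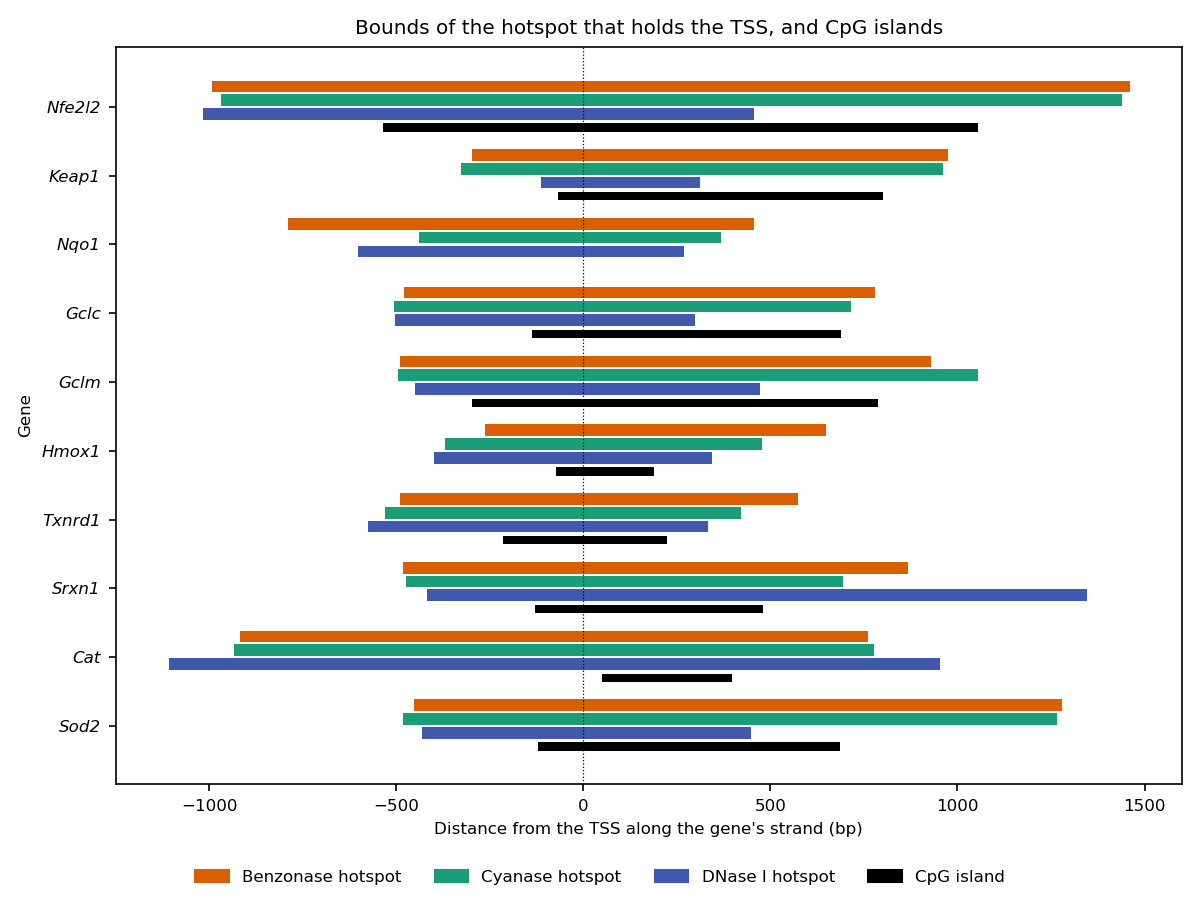
Bounds of the hotspot that holds the TSS for each nuclease, in bp from the TSS along the strand of the gene, with CpG islands in black. The left ends lie close together for most genes, while the DNase I bar ends first on the right for 8 of 10 genes, all but Srxn1 and Cat. A second DNase I hotspot of Nfe2l2, from 494 to 1507 bp, is not drawn.

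Away from promoters the order of widths changed. In 31 regions at the 10 genes with no TSS and exactly 1 hotspot of each list, median widths were 735 bp for Benzonase, 652 bp for Cyanase and 752 bp for DNase I. The DNase I hotspot was the widest in 18 of these (58.1%; all regions of this kind 52.8%) and the narrowest in 7 (22.6%; 30.9%). In 13 such regions with a TSS, it was the narrowest in 10 (76.9%; 79.2%). DNase I was the widest at -9514 bp of Gclc, with 830 bp against 763 bp for Benzonase and 634 bp for Cyanase, and at -8890 bp of Cat, with 808 bp against 676 and 673 bp. It was the narrowest at -9600 bp of Hmox1, with 752 bp against 780 and 769 bp.

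The bases covered by hotspots were shared more in these windows than over the genome. Benzonase and Cyanase shared 81.4% of the bases that either covered, against 73.1% over the genome. Benzonase shared 60.1% with DNase I (45.4%), and Cyanase shared 57.0% with DNase I, also above the share over the genome. Sod2 had the highest value between Benzonase and Cyanase, 98.3%, and Nqo1 the lowest, 64.7%.

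GC content was lowest in the DNase I unique class. Common regions of the 10 genes had a mean GC content of 50.1% ± 7.20 (SD, n = 55 regions), DNase I unique regions 43.0% ± 5.68 (n = 16) and Benzonase-Cyanase unique regions 51.2% ± 4.58 (n = 8). Over all regions the means were 49.5%, 42.3% and 54.7%, so that the DNase I unique regions at these genes were poor in GC as elsewhere, and the ranges of the classes overlapped. The common and Benzonase-Cyanase unique classes at the 10 genes were about 1 point apart, and their order turned in the central 150 bp, with 55.1% and 53.3%. The DNase I unique regions ran from 35.4%, upstream of Nfe2l2, to 54.3%, in intron 5 of Cat. The Benzonase-Cyanase unique regions ran from 44.1%, in intron 2 of Gclc, to 57.6%, in intron 1 of Txnrd1. Within the promoter regions, bases covered by all 3 nucleases had a GC content of 60.2%, those covered by DNase I alone 43.8% and those covered by Benzonase or Cyanase alone 55.1%, against 58.7%, 41.7% and 57.9% over all such promoter regions. Of the 974 bases covered by DNase I alone, 478 were at Srxn1 and 351 at Cat.

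**Figure D4:**
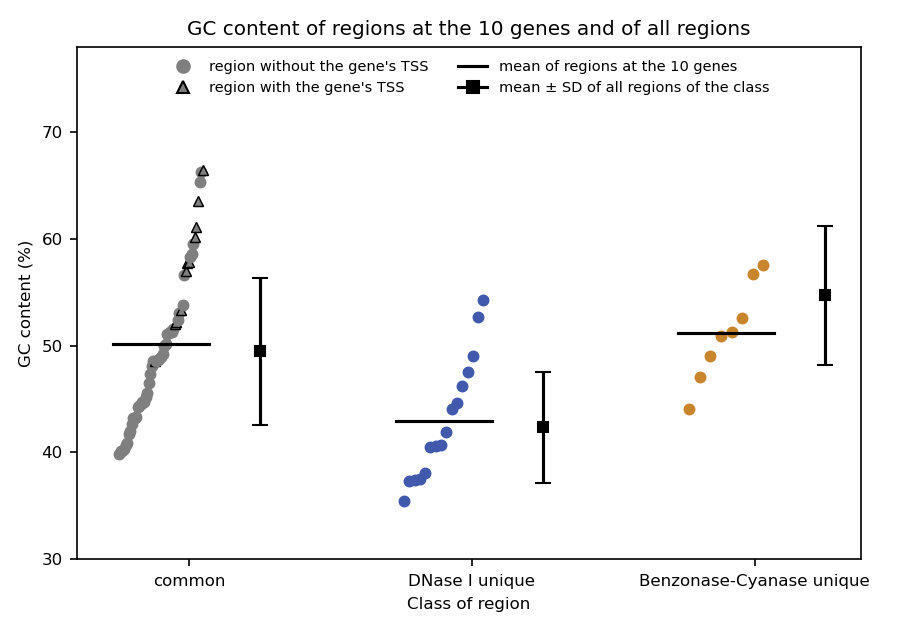
GC content in percent of the 79 regions at the 10 genes by class, with each point a region, triangles the regions with a TSS of the gene, and the line their mean. Squares with bars give the mean and SD of all regions of the class. The DNase I unique regions lie lowest, and all triangles are in the common class.

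CpG islands, stretches of at least 200 bp with GC over 50% and a ratio of observed to expected CpG over 0.6, lay within 500 bp of a TSS at 9 of the 10 genes, against 56.4% of all genes. The longest was that of Nfe2l2, and the shortest, of 263 bp, was that of Hmox1. When islands had to be at least 500 bp long, with GC over 55% and a ratio over 0.65, 6 of the 10 genes had one. The share over all genes was not computed for this stricter rule. With the first rule, islands overlapped 17 of the 79 regions, against 13.8% of all regions. Each of the 17 was common. Over all regions, islands overlapped 22.1% of the common, 0.198% of the DNase I unique and 14.1% of the Benzonase-Cyanase unique class, and with 8 regions of the last class at the 10 genes nothing is read from the absence of islands there.

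The core TGACNNNGC was found in 39.2% of the regions at the 10 genes, against 26.7% of all regions of the 3 lists. Since the regions at these genes were wider, with a median of 815 bp against 641 bp, the search was repeated in the central 300 bp, where 17 of 79 regions held it (21.5%), against 13.7% of all regions. In promoter regions it was present at 6 of the 10 genes, Nfe2l2, Keap1, Gclm, Txnrd1, Srxn1 and Sod2, and 47.5% of the promoter regions of all genes with the same TSS in all 3 lists held it. The stricter form was found in 5 of 79 regions (6.33%), against 1.66% of all regions, and in the central 300 bp in 4 of 79 (5.06%), against 0.874%. Of the 46 matches, 27 lay inside hotspots of all 3 nucleases. Matches over the genome were not counted in this way, so this share is not read as particular to the 10 genes. By class, 23 of 55 common regions held the core (all common regions 36.1%), 5 of 16 DNase I unique regions (18.2%) and 3 of 8 Benzonase-Cyanase unique regions (19.8%). Of the 5 regions with the stricter form, those of Gclc and Hmox1 held it in hotspots of all nucleases, that of Gclm in 2 lists and that of Sod2 in 1.

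**Figure D5:**
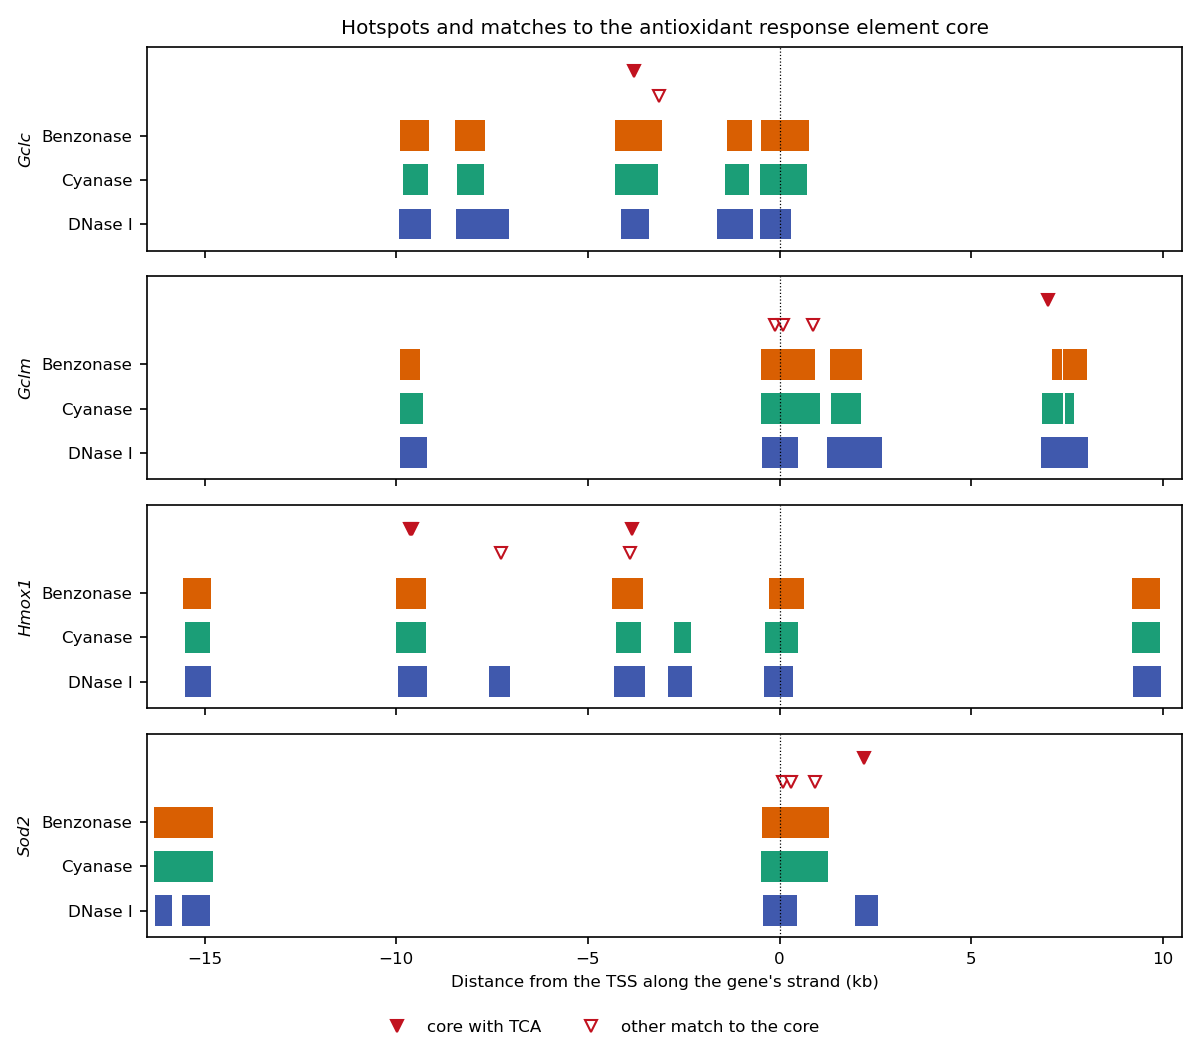
Hotspots of the 3 nucleases at the 4 genes with a copy of TGACTCAGC, by distance from the TSS in kb. Filled triangles mark that sequence, with the 3 copies far upstream of Hmox1 drawn over each other, and open triangles mark other matches to the core, of which those at 23366 bp of Gclc and 15317 bp of Hmox1 lie outside the plot. Hotspots of the regions from 12683 bp of Hmox1, 21127 bp of Gclc and 28768 bp of Gclm onward also lie outside it. The copies of Hmox1 and Gclc stand above bars of all 3 nucleases, and that of Sod2 above a DNase I bar alone.

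The limit of 20 kb decided which regions were counted. The region of Nfe2l2 farthest from its gene lay 18863 bp upstream and was DNase I unique, and the next, at 26397 bp, was not counted and was DNase I unique as well. For Keap1 the farthest counted region was at 15938 bp and the nearest not counted at 22303 bp. The closest of those left out lay 20572 bp downstream of Cat and 20644 bp downstream of Gclm, both DNase I unique, and 21222 bp upstream of Nqo1, a common region. For Hmox1 a common region at 21520 bp, for Txnrd1 a Benzonase-Cyanase unique region at 21504 bp, for Srxn1 such a region at 23124 bp and for Gclc a common region at 29869 bp were the nearest outside. Sod2 had none between 20 and 40 kb.

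Other genes of the pathway were scored at their TSSs in the same way. Of 71 genes, 66 had a TSS in a Benzonase hotspot, 65 in a Cyanase hotspot and 59 in a DNase I hotspot, where the shares over all genes were 57.4%, 55.7% and 47.4%. All 3 lists marked 59 of the 71 genes, against 46.1% of all genes, 7 were marked in some and 5 in none. The 11 thioredoxin and peroxiredoxin genes, the 6 genes of NADPH supply, the 7 genes of heme and iron handling and the 2 other superoxide dismutases had a TSS in hotspots of every nuclease. Among 14 regulators and partners of Nrf2, all were marked by Benzonase and Cyanase, and 11 by DNase I. The other 3 were Maff, a small Maf protein, Nfe2l3, a relative of Nrf2, and Sqstm1, the autophagy receptor p62, which binds Keap1. The nearest DNase I hotspot lay 2493 bp from the TSS of Maff and 14603 bp from that of Nfe2l3, but only 1 bp from that of Sqstm1, so that the last was missed by the bound of a hotspot.

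Of 12 genes of glutathione synthesis and use, 8 had a TSS in hotspots of all 3 nucleases. Gpx3, the plasma glutathione peroxidase, had it in a Benzonase hotspot only. Slc7a11, the cystine transporter subunit, had no hotspot of any list in its window. Ggt1 and Gpx2 had hotspots in their windows but none at the TSS. Of 19 genes of conjugation, reduction and export, 14 were marked in all 3 lists. Gstt1, Abcc1 and Abcc4 had a TSS in Benzonase and Cyanase hotspots only, with the nearest DNase I hotspot 2080, 10374 and 39 bp away. Gsta1 and Cbr3 had none at the TSS, and for Gsta1 the nearest hotspots of the lists lay 412 to 552 bp away.

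The labelled tissue was checked against markers, to be read beside the same shares over all genes. All 7 hepatocyte markers, Alb, Ttr, Apoa1, Apoa2, Cps1, Tat and Hnf4a, had a TSS in hotspots of all 3 nucleases. Of 5 markers of Kupffer cells, the macrophages of the liver, all 5 had a TSS in a DNase I hotspot, 1 (Clec4f) in a Cyanase hotspot and 0 in a Benzonase hotspot. Csf1r, Marco, Cd68 and Timd4 were thus marked at the TSS by DNase I alone. The windows of Csf1r and Cd68 also held Benzonase and Cyanase hotspots, whereas those of Marco and Timd4 held DNase I hotspots only. Of 4 sinusoidal endothelial markers, Kdr had a TSS in Benzonase and Cyanase hotspots and 3 bp from a DNase I hotspot, and Stab2, Lyve1 and Pecam1 in none. The windows of the last 3 still held hotspots of every list. For Benzonase, Cyanase and DNase I these numbered 17, 15 and 17 at Stab2, 7, 8 and 9 at Lyve1 and 6, 7 and 11 at Pecam1. Of 5 stellate and bile duct markers, 3 had a TSS in a Benzonase hotspot, 3 in a Cyanase hotspot and 0 in a DNase I hotspot. Among these, Lrat and Reln were marked by Benzonase and Cyanase, Krt19 by Benzonase, Des by Cyanase and Epcam by none. Of 5 genes listed as non-liver markers, 1 (Gfap) had a TSS in a Cyanase hotspot and 0 in the other lists. Myh6, Neurod1, Ins2 and Myod1 had none at the TSS. For Ins2 the nearest hotspots lay 322 bp (Benzonase), 335 bp (Cyanase) and 371 bp (DNase I) away. Neurod1 and Myod1 also had hotspots in their windows, and Myh6 had no hotspot of any list there. Whether the Cyanase hotspot at Gfap came from a cell type of the liver was not tested. The nucleases thus differed at the TSSs of markers of cells other than hepatocytes, and the part of such cells in the unique regions at the 10 genes was not tested.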

How the data were processed

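Per the file headers and the methods of the authors, tags were aligned to mm9 with Eland or Bowtie, pooled per nuclease, and hotspots were called at a false discovery rate of 0%. The methods also name a tag density threshold, which the headers do not, and whether the deposited lists passed it was not tested. The deposited values are start and end positions, with no tag density. Starts were converted to count from 1, and positions were used on NCBIM37 (mm9) with GENCODE M1. Genes on the mitochondrial chromosome were left out of the background. Hotspots that overlapped by at least 1 bp were merged, which gave 94491 regions here and with bedtools 2.31.1. The merging, islands and sequence search were tested on simulated data. Islands were scored with 17 for a CpG and -1 for other bases. In all, 2 hotspots past a chromosome end were left out of sequence content. Intron and exon numbers follow the transcript with the most exons. Where a gene has several TSSs, distances start from the most upstream in hotspots of all 3 lists.

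Named were the 10 genes, every gene with a TSS in their windows, pathway genes with a TSS in some or none of the 3 lists and, beyond that rule, the cell type markers used to check the tissue. Of matches within 5 kb of a TSS, sequences were shown for cores with TCA and for the match nearest to the TSS; the far upstream stretch of Hmox1 lies beyond that limit and was chosen after its values were seen, as was the choice among allowed matches. Alternatives changed the window, overlap, width filter, islands and search. The members and lists were chosen with earlier results of these data known. Python 3.11.15, numpy 2.4.6, scipy 1.17.1, numba 0.67.0 and matplotlib 3.10.9 were used.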

Additional observations from a re-analysis of the deposited data

How the results depend on the processing

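Of 62 values computed under other settings, 52 stayed within 1.5 times the reported count, within the counting interval of a share, or within 1 SD for hotspot widths and GC content. With 50 kb on each side, the windows held 104 Benzonase, 100 Cyanase and 130 DNase I hotspots, and gene bodies alone held 34, 33 and 34, as the longer or shorter windows imply. An overlap of 50% of both hotspots lowered the share of common regions to 52.1%, below its counting interval, and raised that of Benzonase-Cyanase unique regions to 21.3%, above its own, while the shares over all regions were 37.2% and 31.3%. The counting intervals do not measure such a change of rule and served only as a yardstick. The core was held by 17 regions in their central 300 bp and by 5 regions when TCA was required. Without the hotspots narrower than the lower quartile of their list, DNase I marked a TSS of 9 of the 10 genes, and Benzonase and Cyanase of 10 each; the other settings tried for this count could not lower it. In the central 150 bp of regions, GC averaged 55.1% in the common and 53.3% in the Benzonase-Cyanase unique class, so that their order turned, while DNase I unique regions remained lowest at 44.2%. Leaving out regions with a TSS of another gene, a setting chosen after seeing the data, left 59 Benzonase, 56 Cyanase and 67 DNase I hotspots. No paired analysis was possible because each list pools its libraries, and for the same reason no library could be left out. Without tag numbers, a missing hotspot cannot be told apart from accessibility below the threshold of the authors.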
